A study of Mus musculus with 2 samples.

Results

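Transcripts of 7 intermediate filament genes were followed in poly(A) RNA of adult mouse cortex: Nefl, Nefm, Nefh, Ina, Prph, Nes and Vim. They were chosen by symbol, and each symbol matched 1 of the 43346 gene rows. The material was cortical plate, as the labels name it, from C57BL/6J mice aged 8 weeks, with littermates of both sexes pooled, no treatment named and the health state given as unknown. RNA longer than 200 nt was sequenced as stranded read pairs in 2 libraries, which the labels call biological replicates 1 and 2 and which form the only group. Nothing in the labels says which animals went into which library, so the spread between the libraries may be partly technical.

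Intermediate filaments are ropes of coiled-coil proteins that give a cell mechanical strength, and each cell type builds them from its own members. In neurons, the light, medium and heavy neurofilament subunits assemble together with alpha-internexin into filaments that fill the axon, and the long tails of the medium and heavy subunits carry repeated Lys-Ser-Pro motifs that are phosphorylated there. Peripherin is the filament protein of neurons that send axons out of the brain and spinal cord, nestin marks neural progenitors and some vascular cells, and vimentin is made by endothelium, fibroblasts, ependyma and young or reactive astrocytes.

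The libraries held 91875460 (replicate 1) and 92939474 (replicate 2) expected counts in total, where an expected count is an estimated number of fragments that can be fractional. Added spike-in RNAs took 2.99% and 3.22% of these. Levels between genes are compared in TPM, which divides by transcript length and sums to a fixed total in each library. Cell type markers were looked at beside the tissue label, and all 6 general neuron markers reached a mean between 60.9 and 1530 TPM. Being general to neurons, they do not tell cortex from other brain regions. Region markers differed between the libraries. The summed level of 8 striatal genes was 126 TPM in replicate 1 and 378 TPM in replicate 2. That of 6 hippocampal genes was 42.2 and 30.4 TPM, of which Wfs1 alone had 22.07 and 23.55 TPM.

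The codons of the phosphorylated tail are shown for the heavy and medium subunits, because by their number Nefh stands apart from the other members. In the leading transcript of Nefh, 51 in-frame runs of Lys, Ser and Pro codons were found among 1090 codons, against 4 among the 848 codons of Nefm and 5 among the 1864 of Nes. No such run was found in Nefl, Ina, Prph or Vim. The densest coding stretch of 150 bases in Nefh holds 8 runs and that of 90 bases in Nefm holds 2. Their lengths differ, so these numbers are not set against each other, and where stretches tie the first is shown. Both are given 5′ to 3′ on the minus strand of GRCm38 with the runs in capitals. They lie at chr11:4940920-4941069 and chr14:68121063-68121152.
Nefh: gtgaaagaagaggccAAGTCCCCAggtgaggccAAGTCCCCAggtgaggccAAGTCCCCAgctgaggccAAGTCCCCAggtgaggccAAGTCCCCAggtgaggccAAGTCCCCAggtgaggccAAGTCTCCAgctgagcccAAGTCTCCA
Nefm: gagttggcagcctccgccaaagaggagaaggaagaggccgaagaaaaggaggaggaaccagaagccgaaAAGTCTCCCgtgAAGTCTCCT
Within the Nefh transcript, 21 windows as long as 1 read repeat another window of it. No window of that length in the leading transcript of any of the 7 genes occurs on the same strand in a transcript of another gene. On the opposite strand, 30.7% of the Nefl windows are found in Nefm and 11.3% of the Ina windows in Nt5c2, so those values depend on strand being kept in the counting, which is not given in the sources used here.

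The neurofilament genes led the group. Nefl, the light subunit on which the other subunits assemble (chr14:68083863-68089095, plus strand), had 152.15 TPM in replicate 1 and 141.27 TPM in replicate 2, a mean of 147 ± 7.69 TPM (SD, n = 2). Its rank was 620 among 21474 protein-coding genes by mean TPM. Ina, alpha-internexin (chr19:47014698-47025327, plus strand), followed with 69.48 and 61.26 TPM and rank 1623. Both genes had the higher TPM in replicate 1, by more than any other member.

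Nefm, the medium subunit (chr14:68082590-68124846, minus strand), had 53.59 TPM in replicate 1 and 52.02 TPM in replicate 2 and ranked 2089. Nefh, the heavy subunit (chr11:4938754-4948064, minus strand), had 18.34 and 17.46 TPM and ranked 5632, the lowest level of the 4 neurofilament genes in both libraries. The subunits stood in the same order in both libraries, with 2.84 and 2.72 Nefl transcripts per Nefm transcript, 2.92 and 2.98 Nefm transcripts per Nefh transcript, and 8.30 and 8.09 Nefl transcripts per Nefh transcript in replicates 1 and 2. Of the summed TPM of these 4 genes, Nefl held 51.9% ± 0.0752, Ina 23.1% ± 0.811, Nefm 18.7% ± 0.615 and Nefh 6.33% ± 0.121 (SD, n = 2 each). The sum itself was 294 TPM in replicate 1 and 272 TPM in replicate 2.

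Vim (chr2:13573927-13582826, plus strand) had 47.26 TPM in replicate 1 and 50.20 TPM in replicate 2 and ranked 2282, next below Nefm. Nes, nestin (chr3:87971078-87980451, plus strand), had 1.71 and 1.76 TPM and ranked 12259. Vim stood 27.6-fold above Nes in replicate 1 and 28.5-fold above it in replicate 2. The log2 ratio of 4.81 fell to 3.87 with the full-length Vim transcript alone and to 2.69 in counts not divided by length. Prph, peripherin (chr15:99055174-99058978, plus strand), had 1.55 and 1.47 TPM, the lowest level of the 7, and ranked 12482. Nefl stood 98.2-fold and 96.1-fold above Prph. The 7 genes together held 344 TPM in replicate 1 and 325 TPM in replicate 2.

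**Figure D1:**
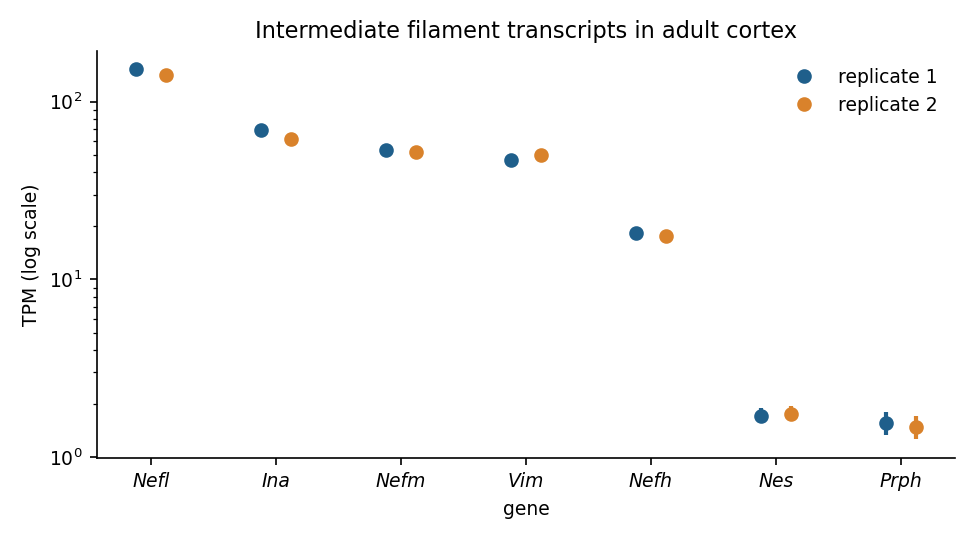
Level of each gene in TPM (log axis) in replicate 1 and replicate 2, ordered by mean, where vertical lines are the deposited credible bounds, whose level is not stated. Nefl is the highest at 152.15 and 141.27 TPM, and Nes and Prph both lie between 1.47 and 1.76 TPM.

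In the order Nefl, Ina, Nefm, Vim, Nefh, Nes, Prph, no 2 neighbours overlapped in the TPM of the libraries. However, 2 pairs of neighbours were close. Nefm exceeded Vim by 0.12 ± 0.092 on the log2 scale (SD, n = 2), and in replicate 2 their credible bounds ran from 50.7 to 52.5 TPM and from 46.7 to 53.0 TPM and so overlapped. Nes exceeded Prph by 0.20 ± 0.083, and their bounds overlapped in both libraries. They were 1.58 to 1.88 TPM for Nes and 1.33 to 1.79 TPM for Prph in replicate 1. In replicate 2 they were 1.64 to 1.93 TPM and 1.26 to 1.70 TPM. In a separate quantification on the older mm9 assembly, Nefm exceeded Vim by 0.09 and Nes exceeded Prph by 0.85 on the log2 scale. Its pair of RPKM columns cannot be assigned to the replicates. There Nefm had 8.13 and 8.12 RPKM and Vim 7.05 and 8.27 RPKM, so the columns overlapped, whereas Nes had 0.299 and 0.326 RPKM against 0.180 and 0.167 RPKM for Prph.

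Among protein-coding genes, the neighbours in rank were Guk1 and Ddx17 above and Lynx1 and Dbp below Nefl. They were Fnbp1, Jund, Ipo13 and Smyd2 for Ina, Mpi, Dnajb5, Tmem160 and Tmem9 for Nefm, Tomm7, Ccdc92, Srgap3 and Pde8b for Vim, and Camk1g, Sephs2, Rpp25l and Samd8 for Nefh. Nes stood between Shq1 and Ttpa above and Rad51ap1 and Lat2 below, and Prph between Prrt4 and Endou above and Mecom and 2210408I21Rik below.

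Nefl, Nefh and Ina each have 1 isoform in the annotation used, and the other 4 genes have several. Nefm was nearly all Nefm-201, at 98.1% of gene TPM in replicate 1 and 98.2% in replicate 2. Its other transcript, Nefm-202, leaves exon 2 for a different exon 3 and ends in an exon 4 that lies on the opposite strand over 1108 bases of exon 1 of Nefl. Nefm-202 was given 235 expected counts in replicate 1 and 248 in replicate 2. These equal 0.718% and 0.745% of the counts of Nefl. On mm9, 1143 reads were spliced across intron 2 of Nefm-201, and 0 reads across either intron that only Nefm-202 uses. A count of 0 allows up to 3 reads.

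Prph has 2 annotated transcripts, which differ by intron 4. That intron is 96 bases long, adds 32 codons with 0 in-frame stop codons when kept, and is shown in capitals between 10 exon bases on each side (chr15:99056927-99057042, plus strand, GRCm38).
Prph-202: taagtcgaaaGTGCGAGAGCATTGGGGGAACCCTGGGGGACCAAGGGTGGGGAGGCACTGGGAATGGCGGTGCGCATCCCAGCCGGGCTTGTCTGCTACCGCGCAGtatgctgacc
The transcript that keeps it, Prph-202, took 21.3% of gene TPM in replicate 1 and 4.08% in replicate 2, with 37.5 and 7.34 expected counts. Its credible bounds were 0.180 to 0.560 TPM in replicate 1 and 0.00858 to 0.180 TPM in replicate 2, which meet at their edge, and no test was made on so few counts. Across intron 4, 22 and 23 reads were spliced in the mm9 columns, within the range of 20 to 63 summed reads for the 8 introns of the gene.

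For Nes, the full transcript Nes-201 took 98.2% and 96.0% of gene TPM. By the deposited posterior mean it took 87.3% and 82.2%, since Nes-203, which removes a further 132 bases, was then given 61.1 ± 46.2 counts in replicate 1 and 98.0 ± 66.5 in replicate 2 (posterior mean ± posterior SD). The intron that only Nes-203 uses had 0 junction reads, beside 19, 27 and 51 across the 3 introns of Nes-201. At that depth a small share of Nes-203 would not be detectable.

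Vim was the gene whose level was most divided between isoforms. Vim-201, the full transcript with 9 exons, had 27.44 TPM in replicate 1 and 23.29 TPM in replicate 2. This is 58.0% and 46.4% of gene TPM, but 84.8% and 71.4% of gene counts, since TPM divides by length and 4 of the other 5 transcripts, all but Vim-205, are shorter. Vim-203, an intron-retaining transcript of 535 nt, held 28.3% and 28.2% of gene TPM, and Vim-204, an intron-retaining transcript of 926 nt, held 10.2% and 14.2%. By the full transcript alone, Nefm exceeded Vim by 1.06 on the log2 scale, in place of 0.12.

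Vim-206, which joins exon 7 to exon 9, had 0.88 TPM in replicate 1 and 5.52 TPM in replicate 2, or 1.86% and 11.0% of gene TPM, with credible bounds of 0.137 to 2.61 TPM and 3.85 to 7.24 TPM that did not overlap. Exon 8, which this transcript leaves out, is shown in capitals between 10 bases of exons 7 and 9 (exon at chr2:13581613-13581698, plus strand, GRCm38). It is 86 bases long, which is not a multiple of 3.
Vim-201: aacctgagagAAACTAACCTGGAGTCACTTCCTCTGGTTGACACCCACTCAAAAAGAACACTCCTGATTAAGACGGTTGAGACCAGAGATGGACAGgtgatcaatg
In the mm9 junction table, 0 reads joined exon 7 to exon 9 in either column, against 1122 reads from exon 7 to exon 8 and 928 from exon 8 to exon 9. With 3 reads as the limit of a count of 0, skipping of at most 0.293% of the mean of the flanking junctions is compatible with that table. The TPM of Vim-206 and the junction reads come from separate alignments.

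**Figure D2:**
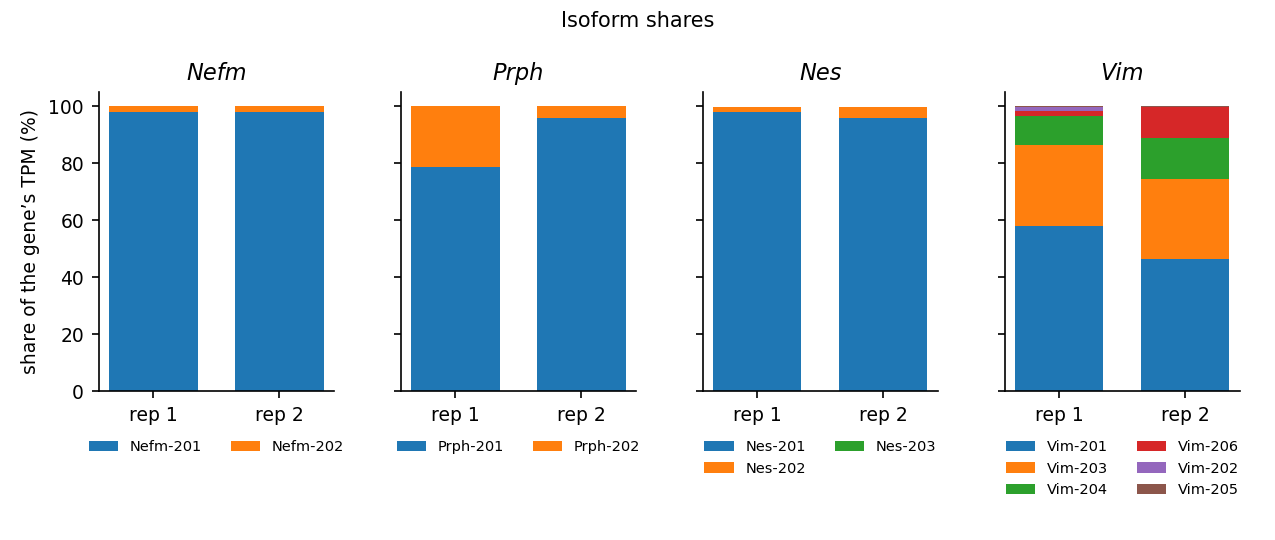
Share of gene TPM (percent) held by each transcript of Nefm, Prph, Nes and Vim in replicate 1 and replicate 2, stacked to the whole gene. Vim-201 takes 58.0% and 46.4% of Vim, and Prph-202 takes 21.3% and 4.08% of Prph.

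Reads spliced across introns gave a second view of the same transcripts. All 3 introns of Nefl were well covered, with 4182, 4960 and 3354 reads over both columns, and the 2 introns of Nefm had 839 and 1143. Ina had 1413 reads on intron 1 and 769 on intron 2, and Nefh had 447, 236 and 227 reads on its 3 introns. Ina and Nefh had their highest value at the 5′ end, and Nefm, Prph, Nes and Vim had their lowest there.

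The 8 introns of Vim ran from 608 reads on intron 1 to 1156 on intron 5. The mean was 734 reads over introns 1 to 4 and 1071 over introns 5 to 8, a ratio of 1.46, with 1.50 in the first column and 1.42 in the second. Introns 5 to 8 are also part of Vim-203 and introns 1 and 2 of Vim-204, and the part of these transcripts in the ratio was not tested. Nes differed most between the columns, with 28 reads in the first and 69 in the second over its 3 introns, a ratio of 2.51 after scaling by the column totals (95% exact interval 1.60 to 4.04). Its RPKM in those columns had a ratio of 1.09. A read pair can cross more than 1 intron, so the interval is too narrow. The same ratio was 0.952 for Nefl, 1.10 for Nefm, 0.992 for Nefh, 0.926 for Ina, 0.988 for Prph and 1.09 for Vim.

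**Figure D3:**
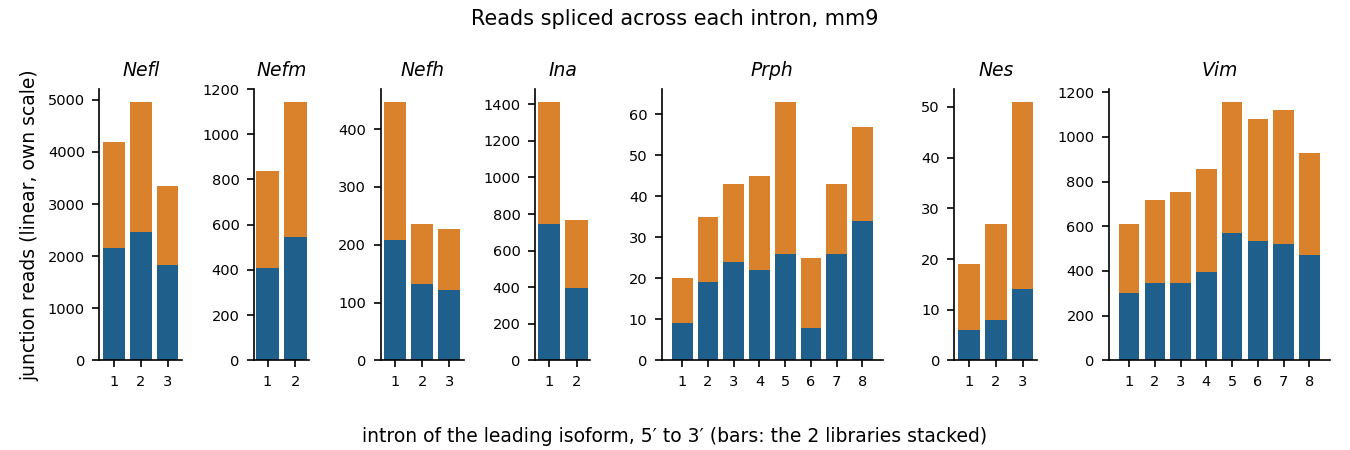
Reads spliced across each intron of the leading isoform from 5′ to 3′, on mm9, each gene on its own linear scale, with the columns of the table stacked (first column below). The bars of Vim go from 608 on intron 1 to 1156 on intron 5, and those of Nefh from 447 on intron 1 to 227 on intron 3.

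Each gene was then compared between the 2 libraries by a two-sided exact binomial test of counts scaled by TMM, a scaling that sets the bulk of genes equal. Differences in the members were small, all within 1.2-fold. Vim had 4363 counts in replicate 1 and 4810 in replicate 2 and was 1.12-fold higher in replicate 2 (95% interval 1.08 to 1.17; adjusted p = 2.9e-07, exact binomial test with Benjamini-Hochberg adjustment). Nefm rose from 11387 to 12101 counts, 1.08-fold (1.06 to 1.11; exact adjusted p = 1.2e-08). Nefl, with 32738 and 33282 counts, was 1.04-fold higher in replicate 2 (1.02 to 1.05; exact adjusted p = 3.4e-05). Nefh, with 4708 and 4909 counts, was 1.06-fold higher (1.02 to 1.11; exact adjusted p = 0.012).

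The other 3 members did not pass the threshold of 0.05. Ina, with 14292 and 13795 counts, had a ratio of 0.984 (0.962 to 1.01; exact adjusted p = 0.36). Nes, with 675 and 751 counts, had a ratio of 1.13 (1.02 to 1.26; exact adjusted p = 0.061), and Prph, with 167 and 171 counts, had a ratio of 1.04 (0.839 to 1.30; exact adjusted p = 0.84). At this depth the counts of Prph are compatible with any ratio from 0.839 to 1.30.

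In all, 4 of 7 members were called, all 4 higher in replicate 2 under TMM. Over all 19829 genes tested, 28.7% were called, 14.7% higher and 14.0% lower in replicate 2, so calls are common at these depths, and the median absolute log2 ratio of all genes was 0.1106. The direction depends on the scaling: by deposited TPM, Nefl, Nefm, Nefh, Ina and Prph were lower in replicate 2 and only Nes and Vim higher. For Vim this is the sum of its transcripts. The full transcript Vim-201 alone was lower in replicate 2, with 27.44 TPM in replicate 1 and 23.29 TPM in replicate 2. By spike-in totals Nefl and Ina were called lower and no member was called higher. With these spike-in totals 53.2% of all tested genes were called, and 8.30% of the genes called were higher in replicate 2. The median of all tested genes moved from 0.003 under TMM to -0.150 under spike-in totals and -0.156 for TPM. Relative to these medians, 6 of 7 members were above and Ina below under TMM and by TPM. Between TMM and spike-in totals all genes shift by the same amount, so a member's side of the median is fixed in advance. By plain library totals, 3 members were called: Nefm and Vim stayed higher, Nefl and Nefh were no longer called (exact adjusted p of 0.21 and 0.15), and Ina was called lower (0.0054). Of all genes called with these totals, 33.2% were higher in replicate 2, in place of 51.3% under TMM. An edgeR exact test that takes the common spread of the 2 libraries as noise called 0 of the 7 members and 260 of all genes. Since each replicate is a single library, these tests compare 2 libraries and no conditions.

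**Figure D4:**
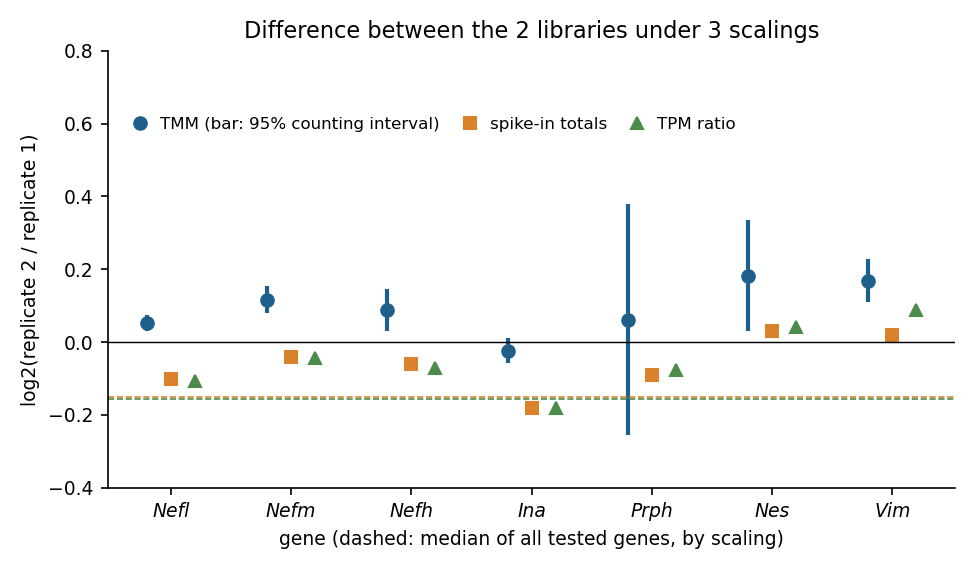
Log2 ratio of replicate 2 to replicate 1 for each gene under TMM (bars are 95% counting intervals), spike-in totals and deposited TPM, with dashed lines at the median of all tested genes for the latter scalings. All points lie between -0.18 and 0.18, and those of Nefl, Nefm, Nefh and Prph change side with the scaling.

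Markers of cells and regions also differed between the libraries, in both directions. The 5 oligodendrocyte markers were all higher in replicate 2, with summed levels of 3274 and 4009 TPM, as were all 8 striatal markers, whose median log2 ratio was 2.186. Among genes that mark cells known to make vimentin or nestin, all 5 ependymal markers were higher in replicate 2, with sums of 11.1 and 17.0 TPM. So were 4 of 5 markers of meningeal fibroblasts (1248 and 1217 TPM, of which Ptgds alone had 1230.42 and 1198.32). The progenitor list also holds genes of newborn neurons, such as Dcx and Sox11, and 4 of its 8 genes were higher (47.6 and 45.0 TPM). For astrocytes, 4 of 6 were higher and 1 lower (1673 and 1545 TPM), for endothelium 1 of 6 higher and 1 lower (195 and 186 TPM), and for mural cells 2 of 5 higher and 2 lower (167 and 158 TPM).

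For the neurons in which peripherin is known, 5 of 8 cholinergic, motor and peripheral markers were higher in replicate 2 (11.5 and 28.8 TPM), and Mnx1 was at 0 TPM in both. For large projection and fast-spiking neurons, which are rich in neurofilaments, 1 of 6 markers was higher and 3 were lower (255 and 225 TPM). General neuron markers gave 2 of 6 higher and 2 lower (3320 and 2983 TPM), and microglia 0 of 5 higher and 2 lower (158 and 136 TPM). The hippocampal list had 1 of 6 higher, Wfs1, and 5 lower, with a median log2 ratio of -1.672. These counts are under TMM. By plain library totals, astrocytes had 1 marker higher and 1 lower, progenitors 3 higher and 2 lower, general neurons 0 higher and 3 lower, endothelium and mural cells 1 higher and 2 lower each, and microglia 0 higher and 3 lower. The splits of the other 7 lists were as under TMM. The edgeR exact test called all 8 striatal, 4 hippocampal, 4 cholinergic, 2 ependymal and 2 progenitor markers and 0 of the other lists, of which only oligodendrocytes, with 5 of 5, had any at an unadjusted edgeR p under 0.05. The part of any of these in the values of the 7 genes was not tested. In bulk tissue, fewer cells of a type and less RNA per cell cannot be told apart.

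The pathway lists are also given under TMM, and their balance depends on that choice. By plain library totals, tail kinases had 3 genes higher and 4 lower, cytolinkers 1 and 2, other intermediate filaments 1 and 2, turnover 0 and 3, transport 0 and 4, and other axonal cytoskeleton 4 and 5. Keratins kept 2 and 2.

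Of 9 other intermediate filament genes, 1 rose and 1 fell, with a median log2 ratio of 0.107 against 0.0028 over all genes. Gfap, the filament of astrocytes, had 101.64 and 88.42 TPM and was 1.03-fold lower in replicate 2 by counts (exact adjusted p = 0.026). Its level lay between those of Nefl and Ina. Synm, synemin, which joins filaments of other members, had 6.21 and 6.18 TPM and was 1.10-fold higher (exact adjusted p = 0.0013). The nuclear lamins Lmna, at 39.70 and 33.88 TPM, and Lmnb2, at 13.42 and 11.64 TPM, did not pass. Nor did Bfsp2, a lens filament gene at 3.57 and 4.10 TPM, or Des, the muscle filament desmin, at 1.64 and 1.57 TPM.

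Of 53 keratin genes, the filaments of epithelia, 46 had a mean under 1 TPM and 17 could be tested, of which 2 were higher and 2 lower. The most abundant were Krt222 at 14.78 and 12.39 TPM, Krt12 at 8.95 and 8.36 TPM and Krt9 at 2.58 and 3.17 TPM. All 3 lay between Nefh and Nes.

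Cytolinkers tie filaments to actin, microtubules and membranes, and 5 of the 6 listed were found. Of these, 2 were higher in replicate 2 and 1 lower, with a median log2 ratio of 0.058. Macf1 had 76.67 and 66.83 TPM, Dst 48.64 and 43.70 TPM and Plec, plectin, 38.08 and 34.04 TPM, so that all 3 were in the range of the abundant members. Macf1 was 1.04-fold and Dst 1.06-fold higher by counts, with exact adjusted p of 3.3e-05 and 1.4e-08, although both had the lower TPM in replicate 2. Evpl had 0.50 and 0.51 TPM.

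Of 14 kinases and partners that act on neurofilament tails, 5 were higher and 1 lower, with a median of 0.017. Camk2a, at 955.61 and 811.89 TPM, was 1.05-fold lower in replicate 2 by counts. Mapk10 had 178.51 and 159.97 TPM, and Cdk5r2, an activator of Cdk5, had 166.23 and 154.68 TPM and was 1.04-fold higher. Mapk3, a kinase of the ERK pathway, differed most, with 132.67 and 138.18 TPM and a 1.17-fold higher count (1.14 to 1.19).

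Of 7 turnover genes, 0 were higher and 2 lower, with a median of 0.026. Uchl1, a ubiquitin hydrolase abundant in neurons, had 620.29 and 571.98 TPM, and Stub1, a ubiquitin ligase, had 126.94 and 109.77 TPM and was 1.04-fold lower by counts. Ube2k had 55.57 and 48.76 TPM. Trim2, a ligase known to act on the light subunit, was at 55.36 and 43.26 TPM and 1.10-fold lower by counts.

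Of 8 axonal transport genes, 2 were higher and 4 lower, with a median of -0.012. Kif5a, a kinesin known to move neurofilaments, had 708.83 and 614.97 TPM, Klc1 456.85 and 390.26 TPM, and Kif5c 272.39 and 202.97 TPM. They were 1.03-fold, 1.04-fold and 1.06-fold lower by counts. Of 11 other genes of the axonal cytoskeleton, 5 were higher and 3 lower, with a median of 0.017. Sptan1, a spectrin, had 373.95 and 319.26 TPM and was 1.09-fold lower, whereas Tubb4a, a tubulin, had 326.66 and 335.85 TPM and was 1.15-fold higher, and Tubb3, the neuronal tubulin, had 268.20 and 255.70 TPM and was 1.06-fold higher.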

How the data were processed

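Polyadenylated RNA was measured in 2 libraries of 1 group, adult cortex. Per the file headers, the authors made the gene and transcript tables on mm10 with GENCODE M4; the program is not given in the sources used here. They deposited expected counts per gene and transcript, TPM scaled over all rows with spike-ins, FPKM, and isoform shares as a percent of gene TPM. The deposited credible bounds are a signal on the TPM scale, and their level is not stated. The deposited mm9 tables hold RPKM and junction reads in a pair of columns not assigned to replicates. The mm9 exon RPKM was not used, since all exons listed with the same transcripts carry 1 value, for 23 of 23 transcript sets of the members.

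Symbols and positions came from the GENCODE annotation of GRCm38 by Ensembl identifier, which matched 98.0% of gene rows. Rows that name no gene, spike-ins apart, held 0.871% and 1.40% of counts and stayed out of the test. Expected counts were rounded. Genes with 10 or more counts in the 2 libraries together were compared by an exact binomial test with TMM library sizes from edgeR 4.0.16 in R 4.3.3 and Benjamini-Hochberg adjustment at 0.05. The test was tried on simulated counts that hold counting error only, so that trial does not cover further spread between libraries. Log2 ratios added 0.5 counts, and intervals are 95% Clopper-Pearson intervals. Intervals and the limit of 3 counts cover counting error only, since the reads carry no molecular identifiers. Alternatives used library totals, spike-in totals, DESeq2 1.42.0 size factors, no count filter, an edgeR exact test (common coefficient of variation 0.0905), other units, and 1 replicate at a time. Other steps used Python 3.11.15, scipy 1.17.1 and matplotlib 3.10.9.

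Codon runs were Lys (AAA, AAG), Ser (TCN, AGC, AGT) and Pro (CCN) in frame, searched on the coding strand. Named were all 7 members, the 2 protein-coding genes next above and below each in rank, transcripts with at least 5% of gene TPM, and in each pathway list the 3 most abundant genes and the 1 with the largest ratio among those with at least 100 counts. Other genes and transcripts named were chosen after their values were seen, as were Nefm-202, Nes-203 and the introns compared. Some items that this rule names are not reported here. Members and lists were chosen with earlier results of these data known.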

Additional observations from a re-analysis of the deposited data

How the results depend on the processing

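The count of members called was 4 under TMM. It was 3 with plain library totals, 2 higher and 1 lower in replicate 2. It was 2 with spike-in totals, both lower in replicate 2, and 0 with the edgeR exact test. Of all genes tested, 28.7% were called under TMM, 31.2% with plain library totals and 53.2% with spike-in totals. Of the genes called with spike-in totals, 8.30% were higher in replicate 2. The share called was 1.31% with the edgeR exact test. The edgeR test also gave 0 called genes among other intermediate filaments, cytolinkers, tail kinases, turnover, transport and other axonal cytoskeleton, and 1 among keratins. At an unadjusted p under 0.05 it called 0 of the 7 members and 1 gene of these lists, a cytolinker, keratins apart, and the binomial test called 5 members.

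Log2 ratios of replicate 2 to replicate 1 changed sign with spike-in totals for Nefl (-0.10), Nefm (-0.04), Nefh (-0.06) and Prph (-0.09), and by TPM for Nefl (-0.11), Nefm (-0.04), Nefh (-0.07) and Prph (-0.08). Without division by length, Vim over Nefh reversed to -0.07 on the log2 scale, Nefm over Nefh moved from 1.56 to 1.29 and Vim over Nes from 4.81 to 2.69. With log2(TPM + 1) the last pair were 1.51 and 4.18. On mm9, Nefl over Nefm moved from 1.47 to 1.40 and Vim over Nes to 4.61, and the share of Nefl was 50.7%. By counts the share of Nefh was 7.56% and of Ina 22.1%. With the full Vim transcript, a choice made after seeing the data, Vim over Nes was 3.87. The leading share of Nes was 84.8% by posterior mean. Leaving out a replicate left the leading share of Nefm between 98.1% and 98.2%. The causes were not tested beyond these constructions. No paired analysis was possible because the series has 1 group. With 1 library per replicate, depth limits Prph and Nes most.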

Other observations

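Junctions outside the annotation were recorded in the mm9 table inside the members. They took 7.52% of junction reads in Nefh (74 reads on 50 junctions), 6.77% in Nefm (144 reads on 85 junctions), 3.96% in Ina, 1.54% in Nefl, 0.898% in Prph, 0.290% in Vim and 0% in Nes. In Nefh, 71 of the 74 reads were on 47 junctions with both ends inside 1 exon, and 37 of those 47 spans were a multiple of 3 bases. The same held for 50 of 75 such spans in Nefm, 36 of 90 in Nefl and 8 of 30 in Ina. The most reads on 1 such junction were 39 in Ina, 14 in Nefl and 8 each in Nefh and Nefm, and the difference between genes was not tested.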
